A study of Mus musculus with 4 samples.

Results

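The regions described here are the Zeb1 peaks that the deposited annotation places in an intron, more than 5 kb from the nearest annotated transcription start site, and outside the LINE, LTR and SINE retrotransposons. A peak was taken when its annotation began with the word intron and its detailed annotation named none of those 3 repeat classes, and peaks in CpG islands were kept as a subgroup. The rule found 1062 of the 17435 peaks in the list, or 6.09%. The list held 1749 intron peaks in all, and the other 687 lay in a LINE, LTR or SINE element. Zeb1 was mapped by chromatin immunoprecipitation and sequencing (ChIP-seq), in which an antibody recovers the DNA fragments that a protein is bound to. The cells were mES-D3, an established mouse embryonic stem cell line adapted to growth without feeder cells. Their medium, GS, was based on N2B27 and contained PD0325901, which blocks MEK (1 μM), CHIR99021, which blocks GSK-3 (3 μM), and LIF (20 ng/mL). Formaldehyde at 1% fixed the chromatin, fragments were near 200 bp, and each precipitation took 8 μg of antibody to Zeb1. There were 3 Zeb1 ChIP libraries and 1 input library, which was sequenced without the antibody step. The list carries means per peak and no value per library, so no spread between libraries can be given for any peak. Markers of the cell type cannot be checked from a list of peaks.

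Zeb1 is a zinc-finger and homeodomain protein that binds E-boxes of the sequence CACCTG and recruits corepressors, and it is best known for repressing epithelial genes during epithelial-mesenchymal transition. Introns of developmental genes hold many enhancers, which act on a promoter at a distance, and they also hold alternative promoters. CpG islands are stretches rich in CG dinucleotides that mark most promoters of housekeeping and developmental genes, and some lie inside genes.

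The sequences below are the windows of 100 to 300 bp nearest the peak centre that overlap no exon, read from the + strand of GRCm38, the assembly also called mm10. Each of the first lines shows the peak with the highest enrichment in its subgroup of the detailed annotation, so that the kinds of DNA grouped under 1 label can be compared. Capitals mark the Zeb1 E-box CACCTG, or CAGGTG where it lies on the opposite strand. The first window comes from a plain intron, in Sez6l, and has 1 E-box next to a long CA repeat. The second lies in an intron of the long non-coding RNA Gm14114, outside RefSeq genes, and also has 1 E-box. The third is from a CpG island in an intron of 4933406F09Rik, and it has 25 CG dinucleotides in 300 bp and no E-box. The Elf4 window, a CpG island with no near-identical copy among the peaks, was added after its value was seen and has 43 CG dinucleotides.
Sez6l intron, chr5:112474721-112475020, + strand: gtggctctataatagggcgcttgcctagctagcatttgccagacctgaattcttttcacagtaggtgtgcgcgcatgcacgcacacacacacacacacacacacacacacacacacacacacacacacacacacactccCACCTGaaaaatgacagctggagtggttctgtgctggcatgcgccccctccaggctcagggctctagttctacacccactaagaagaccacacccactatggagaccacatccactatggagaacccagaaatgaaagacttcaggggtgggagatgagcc
Gm14114 intron, chr2:146839051-146839350, + strand: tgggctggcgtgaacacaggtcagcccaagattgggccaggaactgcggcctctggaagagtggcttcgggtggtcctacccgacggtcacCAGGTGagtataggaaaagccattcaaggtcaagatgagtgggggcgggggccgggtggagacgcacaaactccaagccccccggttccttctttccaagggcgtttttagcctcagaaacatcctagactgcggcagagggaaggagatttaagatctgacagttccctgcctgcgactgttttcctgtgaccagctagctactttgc
4933406F09Rik intron, chr14:7488231-7488530, + strand: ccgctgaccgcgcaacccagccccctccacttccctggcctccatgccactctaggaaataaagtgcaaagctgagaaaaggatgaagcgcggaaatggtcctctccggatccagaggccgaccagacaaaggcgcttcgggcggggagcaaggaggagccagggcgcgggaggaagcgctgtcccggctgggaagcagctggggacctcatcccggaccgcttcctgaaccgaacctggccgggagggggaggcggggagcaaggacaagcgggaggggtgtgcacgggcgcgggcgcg
Elf4 intron, chrX:48453551-48453850, + strand: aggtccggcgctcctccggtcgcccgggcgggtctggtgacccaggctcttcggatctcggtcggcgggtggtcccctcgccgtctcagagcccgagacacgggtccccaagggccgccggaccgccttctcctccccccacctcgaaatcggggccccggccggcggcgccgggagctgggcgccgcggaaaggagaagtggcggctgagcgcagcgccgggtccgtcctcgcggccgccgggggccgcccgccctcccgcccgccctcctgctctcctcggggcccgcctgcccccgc

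The rarer annotations are shown by shorter windows, since they hold few peaks. The Myo9b window is from a satellite. The Dysf window is from a DNA transposon, the Kdm1a window from a repeat of another class, and the Spata5 window from an rRNA-like repeat. None of these 4 windows held the E-box. The Spata5 window has 72% GC. No window is shown for the simple-repeat and low-complexity peaks or the 2 peaks at gene ends.
Myo9b intron, chr8:71334076-71334175, + strand: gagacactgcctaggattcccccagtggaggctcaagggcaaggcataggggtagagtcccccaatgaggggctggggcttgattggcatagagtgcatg
Dysf intron, chr6:84141001-84141100, + strand: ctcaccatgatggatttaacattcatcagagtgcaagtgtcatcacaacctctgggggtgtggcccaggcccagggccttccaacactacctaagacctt
Kdm1a intron, chr4:136587451-136587550, + strand: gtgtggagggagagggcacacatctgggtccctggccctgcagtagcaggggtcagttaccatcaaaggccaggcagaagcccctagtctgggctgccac
Spata5 intron, chr3:37481326-37481425, + strand: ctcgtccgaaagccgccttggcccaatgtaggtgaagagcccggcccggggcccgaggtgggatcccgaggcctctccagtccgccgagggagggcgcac

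The last windows come from the introns of 3 genes that the study names, at the peak with the highest enrichment in each gene. They were picked with the values in view. None of the 3 held the E-box CACCTG in the 200 bp shown.
Nos1 intron, chr5:117781161-117781360, + strand: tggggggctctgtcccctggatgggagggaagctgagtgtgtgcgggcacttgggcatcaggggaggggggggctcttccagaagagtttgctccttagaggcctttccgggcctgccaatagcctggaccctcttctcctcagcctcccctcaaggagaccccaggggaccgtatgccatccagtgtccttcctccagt
Wnt7b intron, chr15:85558251-85558450, + strand: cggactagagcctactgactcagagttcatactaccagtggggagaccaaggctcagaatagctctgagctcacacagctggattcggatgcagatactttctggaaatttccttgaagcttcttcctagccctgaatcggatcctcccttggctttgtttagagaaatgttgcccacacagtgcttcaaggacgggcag
Wnt3 intron, chr11:103810801-103811000, + strand: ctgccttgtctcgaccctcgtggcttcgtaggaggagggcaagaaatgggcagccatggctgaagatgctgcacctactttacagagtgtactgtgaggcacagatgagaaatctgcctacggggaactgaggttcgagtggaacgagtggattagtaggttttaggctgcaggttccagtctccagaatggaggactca

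Enrichment in the list is the authors' ratio of ChIP reads over input reads, scaled for mapped reads and averaged over libraries, and the authors kept peaks of at least 2. The intron peaks had a median enrichment of 5.9, with quartiles of 4.55 and 7.7 and a range of 2 to 58.5. The ChIP means times 3 were whole within 0.01 in 372 of these peaks and the input means in 443, so most values are not plain averages over 3 ChIP libraries and 1 input, and the divisors are not stated. They are given as deposited. The intron peaks held a median of 38.8 mean ChIP reads and 14 mean input reads, over a median length of 2050 bp. An enrichment of at least 10 was reached by 108 of them, or 10.2% (95% Wilson interval 8.49 to 12.1), where 14.7% of the whole list did. All intervals given here cover counting error only, and peaks are not replicates. Strong peaks were thus less frequent among these intron peaks than over the list as a whole.

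The class most like these peaks is the 881 intergenic peaks outside the same retrotransposons, which had a median enrichment of 5.95 and quartiles of 4.51 and 7.95. Their share at 10 or more was 11.1%, and the difference, intron minus intergenic, was -0.954 points (95% Newcombe interval -3.76 to 1.79). No difference from intergenic peaks was detectable with these numbers of peaks. Against the 871 peaks in exons beyond 5 kb, whose median was 6.6, the difference in that share was -6.36 points (-9.47 to -3.32). Against the 10698 promoter peaks, whose median was 6.74, it was -3.24 points (-5.05 to -1.18). Both differences had intervals below 0. The intron peaks inside retrotransposons had a lower median, 5.05, but a wider spread, with quartiles of 3.16 and 9.11. Of those, 21.4% reached 10, and the difference was -11.2 points (-14.9 to -7.72). Per kb of peak, the median was 19.6 ChIP reads and 6.59 input reads in the intron peaks, and 25.1 and 8.07 over all peaks.

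**Figure D1:**
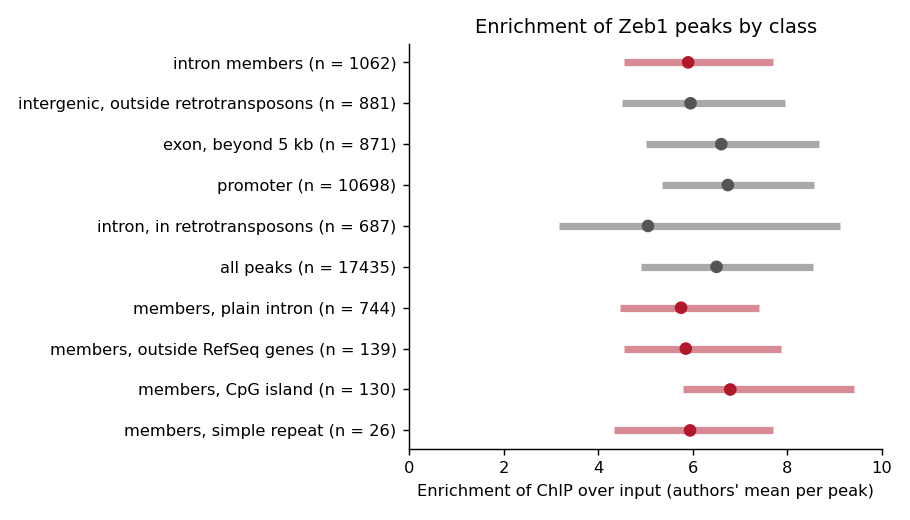
Median enrichment (points) and quartiles (bars) of the intron peaks, their larger subgroups and the compared classes, on the authors' scale of ChIP over input. The intron peaks have a median of 5.9 beside 5.95 in intergenic and 6.74 in promoter peaks, and the CpG island subgroup is the highest of the 4 subgroups drawn, at 6.79.

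The detailed annotation divided the intron peaks into 10 subgroups. Plain intron was the label of 744 peaks, or 70.1%, with a median enrichment of 5.75, and 57 of them (7.66%) reached 10. Another 139 peaks lay in an intron of the main annotation but outside RefSeq genes, with a median of 5.85. CpG islands were named for 130 peaks, or 12.2%, beside 14.6% of the whole list. The CpG island peaks had a median of 6.79 with quartiles of 5.8 and 9.4, and 29 of them, or 22.3% (16 to 30.2), reached 10. This share lay above that of the plain intron peaks, whose interval ran from 5.96 to 9.8. Simple repeats held 26 peaks with a median of 5.94, and low-complexity stretches held 7 with a median of 6.25. The remaining subgroups had 4 peaks or fewer each. The 4 satellite peaks had a median enrichment of 2.95 and a median of 61.2 input reads, and 3 of the 4 had at least 53 input reads, while the Myo9b peak had 13. The 4 DNA transposon peaks had a median of 3.62, the 4 in other repeats 4.45, the 2 in rRNA-like repeats 6 and the 2 at gene ends 3.14.

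The gene lists below group host genes by function, where a host is the gene whose intron holds the peak. They were chosen with earlier results of these data known, so a high share in a list is not an independent finding. Of 20012 protein-coding genes with an intron, 726 were hosts, or 3.63%. The share of hosts rose with intron length, from 0.814% of genes with less than 10 kb of intron in all, through 4.36% at 10 to 30 kb and 6% at 30 to 100 kb, to 8.7% (7.53 to 10) above 100 kb. Shares of lists are therefore given with the summed intron length of their genes, whose median was 13.9 kb over all genes.

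Wnt proteins are secreted signals that act through Frizzled receptors and beta-catenin, and they drive the formation of mesoderm in the early embryo. In the Wnt list, 8 of 39 genes with an intron were hosts, or 20.5% (10.8 to 35.5), with a median summed intron length of 26.2 kb. All 8 hosts in this list encode ligands, namely Wnt3, Wnt3a, Wnt4, Wnt6, Wnt7a, Wnt7b, Wnt9a and Wnt9b. The lower bound of that share was above the 4.36% of genes with 10 to 30 kb of intron. Wnt7b, a ligand of lung, placental and neural development, held 3 intron peaks, and the strongest had 58.5 ChIP and 12.5 input reads and an enrichment of 9.2. The others in Wnt7b had 4.95 and 4.4, and the one with 4.95 was listed under a neighbouring gene, 7530416G11Rik. A peak in the only intron of the annotated Wnt6 transcript had an enrichment of 8.3 and lay 861 bp from a GENCODE start. Wnt3, which the embryo needs to form a primitive streak, held 2 peaks with enrichments of 7.8 and 6.5, the weaker in a CpG island. Wnt3 and Wnt7b are among the genes that the study names, so the list is not independent of it.

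Axon guidance genes encode secreted cues and their receptors, and many have long introns. Hosts made up 8 of 35, or 22.9% (12.1 to 39), and the list's median summed intron length was 150 kb, beside 45.8 kb in its hosts. The lower bound lay above the 8.7% of genes with over 100 kb of intron. The hosts were Efnb2, Ephb2, Ntn1, Plxna1, Plxnd1, Sema3f, Unc5a and Unc5b. Ephb2, a receptor tyrosine kinase for ephrins, had 4 peaks, and the strongest reached 10.6 from 27 ChIP and 5 input reads. Sema3f, a secreted repellent, had 1 peak at 9.65. Ntn1, the secreted cue netrin-1, had 2 peaks, the stronger at 8.22 in a CpG island 748 bp from a GENCODE start.

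By host, the intervals of the other 7 lists described here all included 3.63%. For BMP and TGF-beta signalling, 3 of 30 genes were hosts, or 10% (3.46 to 25.6). They were the activin receptor Acvr2b with a best enrichment of 6.25, the Smad corepressor Ski with 6.14, and the ligand Bmp7 with 4.5. In the Notch list, 2 of 22 genes were hosts, or 9.09% (2.53 to 27.8), both of them receptors, Notch4 with 6.4 and Notch1 with a best value of 5.4. For FGF and ERK signalling, the receptor Fgfr2 was the single host of 28 genes, 3.57%, with a best enrichment of 4.7. These enrichments were mostly near the median of the intron peaks.

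The list of mesendoderm and cardiovascular genes, which holds regulators, receptors and muscle proteins, had 3 hosts among 34 genes, or 8.82% (3.05 to 23). Runx1, which blood stem cells need in order to form, had 1 peak with 61 ChIP and 8.67 input reads and an enrichment of 14.4. Casz1, a zinc-finger protein of heart and vessel development, had 5 peaks between 3.35 and 10.4. Gata4, a cardiac and endodermal zinc-finger protein, had 1 CpG island peak at 3.2. Kdm1a, the histone demethylase LSD1, held 1 peak, at 5.25. Polycomb genes had a single host of 28, Cbx7, a chromodomain subunit of the complex PRC1, with 3 peaks between 5.25 and 12.3. Runx1, Cbx7 and Casz1 thus each had a peak above 10.

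Epithelial junction and EMT genes, where Zeb1 has its best-known targets, had 1 host among 31, or 3.23% (0.572 to 16.2). It was Ovol1, a zinc-finger repressor that favours the epithelial state, with an enrichment of 4.7. In the naive pluripotency list, 0 of 19 genes with an intron were hosts, which allows a share of up to 16.8%. Peaks of any class were named for 16 of those 19 genes and for 28 of the 31 epithelial genes, where 50.6% of all protein-coding genes with an intron had one. Other lists had like numbers, 32 of 35 for axon guidance and 25 of 28 for FGF and ERK signalling, so this is not particular to them. Neither share of hosts, epithelial or naive, could be told from 3.63%. Introns were short in the naive pluripotency genes, with a median sum of 10 kb.

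The lists can also be counted by the gene that the deposited list names for a peak, which need not be the host, and 3.52% of all protein-coding genes with an intron were named for an intron peak. The mesendoderm and cardiovascular list then had 6 of 34 genes, or 17.6%, since Acta1, Foxa2 and Hand2 were named for peaks in introns of other genes. The Wnt list had 10 of 39, or 25.6%, with Fzd6, Sfrp2 and Wnt10a added, and the peak in Wnt6 was listed under Wnt10a. Axon guidance had 7 of 35, or 20%. Epithelial genes had 2 of 31, with Snai1 added, and naive pluripotency genes 1 of 19, Gbx2. The numbers for the BMP and TGF-beta, Notch, FGF and ERK, and polycomb lists were the same by either count. The net number of genes thus changed the most in the mesendoderm and cardiovascular list among the lists described. The genes added to these lists were picked out with their values in view.

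**Figure D2:**
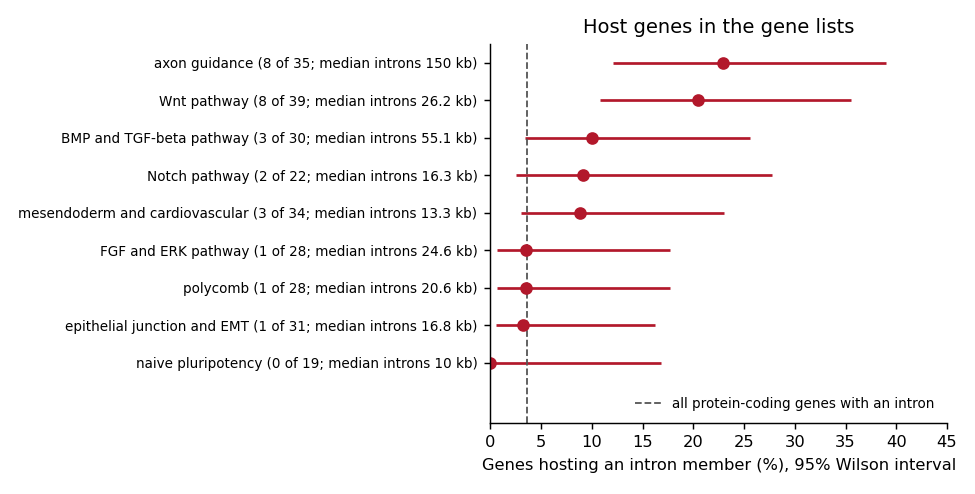
Percent of the genes of each list that host an intron peak (points), with 95% Wilson intervals (bars), and the share over all protein-coding genes with an intron (dashed line, 3.63%). Axon guidance at 22.9% and Wnt at 20.5% have intervals above the dashed line, which takes no account of intron length. The lists were chosen with earlier results of these data known.

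Of the other genes that the study names, Nos1 was the strongest case among intron peaks. Nos1 encodes the neuronal nitric oxide synthase and is transcribed from several alternative first exons. A peak with 39.7 ChIP and 4.71 input reads and an enrichment of 17.6 was centred 145 bp from a GENCODE start and 85639 bp from the nearest curated RefSeq start. Another, with 55.8 ChIP and 14.6 input reads and an enrichment of 8.72, lay 514 bp from a GENCODE start. Both Nos1 peaks are thus distal by RefSeq and next to an annotated start by GENCODE. Mesp2, Tbx4, Dll1, Nos2, Nos3, Zeb1, Zeb2, Hdac2 and Cdh1 held 0 distal intron peaks outside retrotransposons. Most of them had peaks of other classes. By gene named, which need not be the gene a peak lies in, Tbx4 had 4 peaks of any class. Zeb1 and Hdac2 had 2 each, and Mesp2, Dll1, Nos2, Zeb2 and Cdh1 had 1 each. The study describes Zeb1 peaks along the locus of eNOS, the gene Nos3, and fewer at that of nNOS, the gene Nos1. It found almost none at iNOS, the gene Nos2, and it also measured Zeb1 at the eNOS promoter by gene-specific ChIP. By gene named, the list had 0 peaks of any class for Nos3 and 2 for Nos1. Peaks of all classes were not counted by position in these genes, so these numbers do not test the study's description.

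The 10 highest enrichments fell in a varied set of places. The first and second, 58.5 in 4933406F09Rik and 43.9 in an intron of Gm3173 listed under Gm3264, came with very low input. The first had 41 ChIP and 1.8 input reads, and the second 55.7 and 2.86. LOC100861615 with 19.2 and Gm10406 with 18.4 belong to the same repeated family on chromosome 14, described further on. The others had no copy among the intron peaks. The Gm14114 peak, listed under the centrosomal gene Kiz, had 34.5 ChIP and 4 input reads and an enrichment of 27.1, and lay 532 bp from a GENCODE start. Elf4, an Ets-family transcription factor on the X chromosome, had a CpG island peak at 25.1, from 60 and 5.5 reads, 469 bp from a GENCODE start.

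The gene Foxa2, which encodes a pioneer factor of endoderm and floor plate, was named for a peak of 21.7 in an intron of the non-coding RNA 9030622O22Rik. It had 34.4 ChIP and 3.86 input reads, and it lay 5514 bp from the RefSeq start and 253 bp from a GENCODE start. The Sez6l peak, listed under Gm6588, had 51.1 ChIP and 6 input reads and an enrichment of 20.5, and was centred 227 bp from a GENCODE start. Sez6l encodes a membrane protein of neurons. Chd5, a chromatin remodeller expressed mainly in neurons, reached 19.2 from 24 and 3 reads, and Mgat5b, a glycosyltransferase of the brain, 18.4 from 47 and 5.5 reads. Of the 10, the peaks at Gm14114, Elf4, 9030622O22Rik and Sez6l were within 1 kb of a GENCODE start. The peaks listed under 4933406F09Rik, Gm3264, Gm10406 and Elf4 were within 1 kb of a curated RefSeq start, against the label distal. Among the 10 highest, all had at most 6 input reads.

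The peaks with the most ChIP reads were a different set. A satellite peak in an intron of Gm21738, listed under Gm5458, had 4825 ChIP and 4424 input reads and an enrichment of 2.65, so the input was nearly as deep there as the ChIP. The next were long peaks over genes with many short introns. One of 14850 bp in Itpr3, a calcium channel of the endoplasmic reticulum, listed under Uqcc2, had 233 ChIP reads and an enrichment of 9.16. Another in Ints1, a subunit of the Integrator complex, listed under Mir7037, had 229 ChIP reads and 12.4. Caskin1, a synaptic scaffold protein, had 202 ChIP reads and 11.8, and Kdm6b, a demethylase of the polycomb mark on histone H3, had 192 and 10.5. Across the 1062 peaks, ChIP reads followed peak length (Spearman's rho 0.706), and enrichment barely did (rho 0.13). Enrichment and input reads had a rho of -0.449, and they share the input library by construction.

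The list named 841 genes for the intron peaks, and the introns belonged to 798 host genes. The gene named was the host in 579 peaks and another gene in 483, since genes were named by the nearest start. Protein-coding genes were the hosts of 985 peaks, or 92.7%, and lincRNAs of 35, with a median enrichment of 6.55. A single peak was found in 654 hosts, and 2 or more in 144.

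Gse1 was the host with the most intron peaks, a very long gene model described after it came close, and all other hosts had at most 6. Gse1 encodes a coiled-coil protein that co-purifies with the demethylase LSD1 and histone deacetylases. The gene spans 353 kb of chromosome 8 and held 29 of the intron peaks, or 8.22 per 100 kb. Peaks of every class in the list numbered 39 within it, of which 4 were promoter peaks, 1 was in an exon and 4 were in retrotransposons, and together they covered 113 kb, or 32% of the gene. The 29 ranged in enrichment from 2.5 to 13, with a median of 5.08, and 12 of them were in intron 1. Their median input was 7.41 reads per kb of peak, beside 6.52 in the intron peaks outside Gse1. The input was thus slightly higher there, and its part in the number of peaks was not tested. By gene named, the largest numbers were 15 for Gse1, 11 for the RNA gene A330074K22Rik, which starts just before Gse1 on the opposite strand, 7 for 1700018B08Rik, 5 for Casz1 and 4 for Cxxc5, which encodes a zinc-finger protein that binds unmethylated CpG. Cxxc5 was 1 of 9 genes with 4 peaks and had the most ChIP reads of these in a single peak, 94.5, and its enrichments were 5.9 to 8.75.

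**Figure D3:**
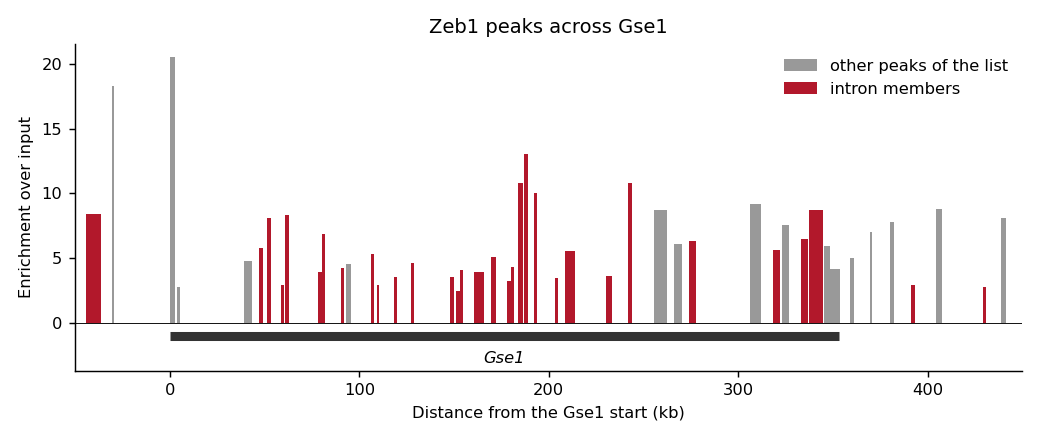
Enrichment over input (height) and length (width) of the peaks along Gse1, against the distance from its start in kb, with intron peaks in red, all other peaks of the list in grey and the gene as the dark bar. The 29 intron peaks lie along the gene from 2.5 to 13, and the tallest grey bars lie at or before its start.

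Also on chromosome 8, a gene model of 4435 kb that spans Gse1 and many other genes, Gm20388, was host to 27 intron peaks, with enrichments of 2.55 to 14.1 and a median of 6.9. The list named 12 genes for these peaks. Among the genes named were Irf8, a transcription factor of myeloid cells, Fendrr, a non-coding RNA next to Foxf1, and Cbfa2t3, a corepressor of blood cells, all picked out with their values in view. Chromosome 8 as a whole held 170 intron peaks, or 16% (13.9 to 18.3), against 5.26% of protein-coding intron sequence over 5 kb from GENCODE starts (distal intron sequence) and 7.59% of all peaks in the list. Without Gse1 and Gm20388 it held 114, or 11.3%. Of the 559 peaks in protein-coding hosts that were themselves over 5 kb from every GENCODE start, chromosome 8 held 110, or 19.7% (16.6 to 23.2). The share on chromosome 8 was thus high on each count. Gse1 and Gm20388 were not left out of the 559, so the last count is not separate from the first. Input reads per kb of peak had a median of 6.48 on chromosome 8 and 6.61 elsewhere, and the median enrichments were 5.43 and 5.97. Chromosome 4 held 103 peaks (9.7%) and chromosome 11 held 100 (9.42%), against 5.7% and 5.07% of distal intron sequence and 7.34% and 8.02% of all peaks in the list. The interval of chromosome 11, 7.8 to 11.3, included its share of the list. Chromosome 3 held 10, or 0.942%, and the X chromosome held 3, or 0.282%, against 5.14% and 5.07% of distal intron sequence and 4.07% and 1.58% of the list, so the X chromosome was low over the list as well.

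Many of the intron peaks had close neighbours. When peaks at most 50 kb apart were joined, 441 peaks, or 41.5%, fell into 165 groups, and 621 stood alone. The largest group had 31 peaks over 384 kb at Gse1 and the adjoining Emc8. The next had 8 peaks over 119 kb at Cbfa2t3, and groups of 6 lay at the Src kinase inhibitor gene Srcin1, at the receptor phosphatase gene Ptprf and at Sipa1l3. These smaller groups were picked out with their values in view. The median distance to the nearest other peak of any class was 8825 bp, and 376 of the intron peaks, or 35.4%, had one within 5 kb.

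Some of the strongest peaks were copies of each other. Peaks were called copies when they shared at least 25% of their 31-base words, and 18 peaks formed 5 groups. The largest group had 9 peaks, all on chromosome 14, in 4933406F09Rik, Gm3264, Gm3173 and related genes, a tandem family related to alpha-takusan. Of these 9, 8 were CpG islands, with a median of 50.4 ChIP and 6 input reads and enrichments from 5.24 to 58.5 (median 15.9). Over all 18 copies the median was 11.2, and 10 of them reached an enrichment of 10, while the 1044 other peaks had a median of 5.9. Copies share their sequence, so they are not separate observations. The chromosome 14 group had an input below the median of 14 of all intron peaks, and the part of the input in its enrichment was not tested.

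The word distal depends on the annotation used. Every intron peak was over 5 kb from the start assigned in the list, with a lowest distance of 5003 bp, a median of 19788 bp, quartiles of 10361 and 43352 bp and a highest of 454917 bp. Of the distances that matched a reference start of the named gene within 2 bp, 832 had a positive sign downstream of the start and 0 upstream, and on that reading 765 peaks lay downstream and 297 upstream. The legend of the deposited list gives the opposite sign, which would swap these counts. Median enrichment differed little along this distance, with values of 5.94 at 5 to 10 kb, 5.91 at 20 to 50 kb and 5.53 beyond 100 kb. Against all curated RefSeq starts, 69 peaks (6.5%) were centred within 5 kb of one. Against the larger GENCODE set, 467 (44%) were within 5 kb and 209 (19.7%) within 1 kb. The label distal therefore holds for RefSeq starts in most peaks and for GENCODE starts in 595.

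The number of GENCODE starts in introns gives the base for that count. Of the 993 peaks over 5 kb from every curated RefSeq start, 170, or 17.1% (14.9 to 19.6), were within 1 kb of a GENCODE start, against 5.13% of the 803 Mb of RefSeq intron sequence at that distance. Within 5 kb, the shares were 41.1% (38.1 to 44.2) and 20.8%. The 2 sides are not fully alike. The sequence is that of introns of protein-coding RefSeq transcripts, while 139 of all the intron peaks lay outside RefSeq genes, in introns of other gene models. The shares near GENCODE starts were thus higher in the peaks than in that sequence, and the part of the annotation in this was not tested. The 170 peaks had a median enrichment of 6.68 with quartiles of 5.05 and 8.43, and 19.4% were CpG islands. The 585 peaks over 5 kb from any start of either set had a median of 5.7 with quartiles of 4.4 and 7.35, and 9.4% were CpG islands. The shares that reached 10 were 11.8% (7.75 to 17.5) and 9.23% (7.14 to 11.8), and their intervals overlapped.

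Within genes, 305 peaks, or 28.7% (26.1 to 31.5), were in intron 1 by the deposited numbering. Intron 2 held 192, intron 3 held 81 and later introns held 484, and 212 were in the last intron of their transcript. CpG islands fell from 21.6% of the peaks in intron 1 to 16.1% in intron 2, 11.1% in intron 3 and 4.96% in later introns. Median enrichment was 6.09 in intron 1, 5.84 in intron 2, 5.54 in intron 3 and 5.9 in introns 4 or later. An enrichment of at least 10 was reached by 12.8% of the peaks in intron 1 and by 8.06% in introns 4 or later, and by 14.6% in the last intron of a transcript. These differences were not tested. In protein-coding hosts, 259 of 985 peaks were in intron 1, or 26.3% (23.6 to 29.1), where intron 1 makes up 24% of the 592 Mb of protein-coding intron sequence over 5 kb from GENCODE starts. That base leaves out sequence near GENCODE starts, where some of the 985 lie. In the 559 peaks with a protein-coding host and over 5 kb from every GENCODE start, a set chosen after seeing the data, intron 1 held 142, or 25.4% (22 to 29.2). By the longest reference transcript it held 134 of them, or 24% (20.6 to 27.7). An excess in intron 1 was not detectable in this set.

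The introns that held peaks were 7196 bp long at the median, with quartiles of 1013 and 33930 bp. Peaks lay at a median of 50.8% of the way through the intron, and at 62% of the way through the host gene, since 12.5% were in the first 20% of the gene and 27.2% in the last 20%. The 5 kb limit removes the start of the gene, which lowers the first of these shares. Peaks often reached beyond their intron, and 569, or 53.6%, overlapped a curated RefSeq exon. Those had a median enrichment of 5.97 and a median length of 2300 bp, and the others 5.75 and 1700 bp. The peak centre itself was in a RefSeq exon in 12 cases and in a GENCODE exon in 49.

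Zeb1 binds CACCTG, and this E-box was searched on both strands in the 300 bp around each peak centre. It was present in 332 intron peaks, or 31.3% (28.5 to 34.1), beside 29.4% of all peaks in the list. Flanking windows of the same length, 5 kb to either side and outside any peak, had it in 26.3% (n = 1871), a difference of 4.97 points (1.57 to 8.42). Promoter peaks had 25.2%, a difference of 6.11 points (3.27 to 9.07), and intergenic peaks 27.4%, a difference of 3.91 points (-0.168 to 7.93). Exon peaks had it more often, in 37.3%, and 32851 reference promoters of 300 bp had it in 20.2%. The excess over flanks was thus small, and 730 of the peaks had no match in the window. A single match was found in 259, 2 in 61 and at least 3 in 12. Over the whole peak, with a median length of 2050 bp, 945, or 89%, had at least 1 match. Stretches of only 200 bp lying 3 kb upstream on the + strand held the E-box in 19.7%. The share was not counted over all peaks or in other sequence of that length, so the 89% shows nothing particular to these peaks. No match says only that these letters are not in the window.

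Base composition also differed between peaks and flanks. The median GC content was 57.5% in the intron peaks and 50.3% in their flanks. Among windows of 55 to 65% GC, the share with CACCTG was 32.7% in intron peaks and 35.9% in flanks, a difference of -3.2 points (-9.32 to 2.87). At 45 to 55% GC the shares were 30.3% and 25.2%, a difference of 5.08 points (-0.489 to 11). No excess of the E-box over flanks was detectable within either GC range, and these ranges were chosen after seeing the data. The E-box also did not follow enrichment. In 3 groups of 354 peaks from low to high enrichment, it was present in 30.8%, 32.2% and 30.8%, while median GC content went from 55.3% to 58% and 58.7%. CpG islands made up 4.8%, 14.1% and 17.8% of these groups, and median input reads were 16.9, 14.5 and 11.

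The sharper feature of the peak centres was CG content. In 200 bp bins, mean GC content was 57.7% at the centre and 49.9% at 3 kb upstream on the + strand, and CG dinucleotides numbered 3.46 and 1.37 per 100 bp. The E-box was in 21.8% and 19.7% of these bins, and its share varied from bin to bin between 16.5% and 23.8%, the highest being 600 bp from the centre. The intergenic peaks had a higher centre and a lower surround, with 60.6% GC and 5.62 CG dinucleotides per 100 bp at the centre. The ratio of observed to expected CG dinucleotides had a median of 0.333 in intron peaks, 0.199 in their flanks, 0.554 in intergenic peaks and 0.774 in the CpG island subgroup. Of the 932 peaks not named as CpG islands, 63, or 6.76%, had a centre window with more than 50% GC and a ratio over 0.6, as 110 of the 130 island peaks did and 0.534% of flanks.

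**Figure D4:**
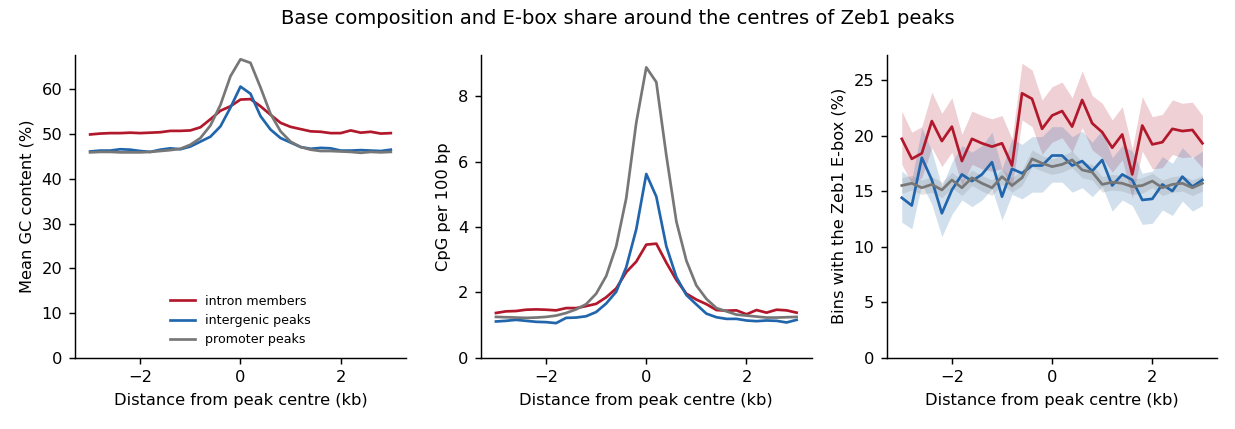
Mean GC content (left), CG dinucleotides per 100 bp (middle) and percent of 200 bp bins with CACCTG (right, shading shows 95% Wilson intervals) against the distance from the peak centre in kb, for intron, intergenic and promoter peaks. GC content of intron peaks is 57.7% at the centre and 57.8% at 200 bp to its right, from 49.9% at the left edge. The E-box line varies between 16.5% and 23.8%, and its highest bin is 600 bp from the centre.

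Other motifs were compared in the same windows, 18 in all with CACCTG, with no correction for their number. The GC box GGGCGG, read by Sp and Klf factors, was in 27.9% of intron peaks and 6.04% of flanks, a difference of 21.8 points (19 to 24.8), and in 70.8% of the CpG island subgroup. It was more frequent in intergenic peaks, at 41.5%, and in promoter peaks, at 59.9%. The E-box CAGCTG, bound by many basic helix-loop-helix factors, was in 26.6% against 18.8% of flanks, a difference of 7.79 points (4.64 to 11), which is larger than that of CACCTG. Part of the CTCF consensus, AGGNGGCNC, was in 9.7% against 4.65% (difference 5.05, 3.1 to 7.16), and the Ets motif CCGGAAG in 3.11% against 1.66% (difference 1.45, 0.33 to 2.77). The motifs above that were more frequent at centres than in flanks are all rich in G and C.

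Several motifs were rarer at centres than in flanks. The AP-1 motif TGANTCA was in 5.37% of intron peaks and 8.39% of flanks, a difference of -3.02 points (-4.83 to -1.1). The Sox motif CATTGTT was in 2.26% against 4.17%, and the octamer ATTTGCAT of Oct4 and other POU factors in 0.565% against 1.71%. Their differences were -1.91 points (-3.15 to -0.555) and -1.15 points (-1.9 to -0.318). The Tead motif GGAATG, at 14.5% against 15.6%, and the Gata motif AGATAAG, at 2.45% against 2.67%, had differences whose intervals included 0. A run of 6 CA copies was in 3.01% against 4.7%, a difference of -1.69 points (-3.06 to -0.2). The Tcf/Lef motif ATCAAAG was in 2.17% against 3.47%, a difference of -1.31 points (-2.48 to -0.0136). The Sox and octamer motifs, read by pluripotency factors among others, were thus not concentrated at these centres, and the part of base composition in these differences was not tested for motifs other than CACCTG.

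**Figure D5:**
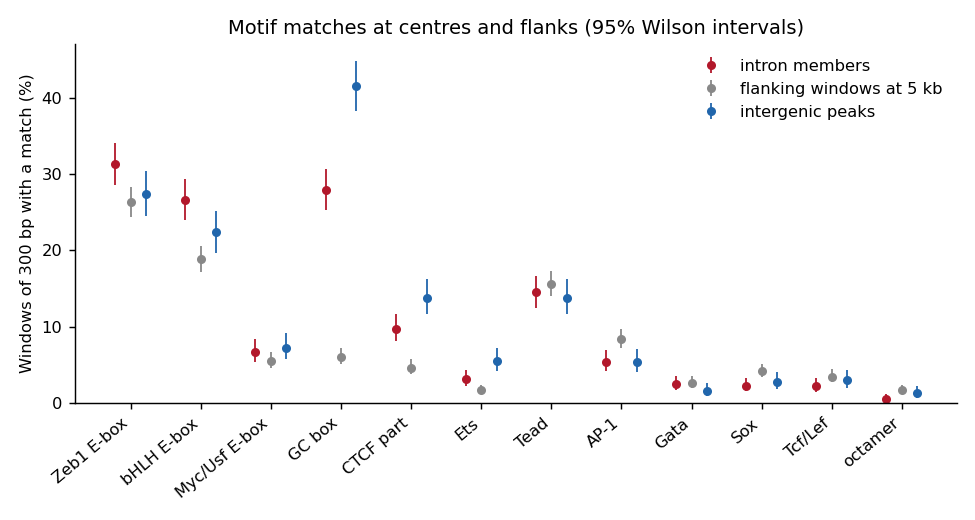
Percent of 300 bp windows with each motif (points) and 95% Wilson intervals (bars) at the centres of intron peaks, in their flanking windows at 5 kb and at the centres of intergenic peaks. The GC box differs the most, with 27.9% of intron peaks, 6.04% of flanks and 41.5% of intergenic peaks.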

How the data were processed

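Zeb1 ChIP-seq came from 3 ChIP libraries and 1 input library. By the submitters' processing notes and the study's methods, the authors subsampled 30 M reads from every library, used STAR 2.4.2a for alignment to mm10 and Picard 1.136 against duplicates, and annotated with HOMER 4.7 the peaks found in at least 2 libraries. The deposited read columns are a signal, the authors' mean number of reads per peak. The deposited enrichment is a ratio of ChIP over input that the authors scaled and averaged. The deposited p-value was 0 in every peak and was not used. The aligned reads of each library cannot be read from the list. Shares have 95% Wilson intervals and differences Newcombe intervals, with no p-values. Sequence and transcripts came from GRCm38.p6 (curated RefSeq) and GENCODE vM21. The genes named are those of the 10 highest enrichments, the 5 highest read numbers, the 5 highest CpG island peaks, the 5 genes with most peaks, the top 3 per gene list and the study's genes, and exceptions are marked. No count is given for 1 further gene list. Members and lists were chosen with earlier results of these data known. The code was tested on simulated data. Other limits of enrichment, windows, flanks and annotations were tried. The study's RNA-seq and qRT-PCR were not analysed here. Tables were handled in pandas 2.3.3 and NumPy 2.4.6 under Python 3.11.15, with intervals from SciPy 1.17.1, sequence access by pysam 0.24.0 and plots by matplotlib 3.10.9.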

Additional observations from a re-analysis of the deposited data

How the results depend on the processing

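Of 33 alternative settings over 8 results, 8 were chosen after seeing the data, and 18 of the 33 left the value within its interval or, for counts, within the limit set for them. With an enrichment of at least 5, 706 peaks were left, and 595 lay over 5 kb from every GENCODE start, with a median enrichment of 5.7 (chosen after seeing the data), and both counts are smaller by construction. The median was 6.25 with at least 30 ChIP reads and 2.88 as plain ChIP over input reads, which lacks the authors' scaling. The share at 10 or more, 10.2%, became 22.1% at 8 or more and 1.79% at 15 or more, and 8.48% without CpG islands. Intron 1 held 24.7% by the longest reference transcript, 25.6% without CpG islands and 25.4% in protein-coding hosts over 5 kb from GENCODE starts (chosen after seeing the data). CACCTG was in 21.8% of 200 bp and 45.7% of 500 bp windows. The E-box difference from flanks reversed to -3.2 points at 55 to 65% GC (chosen after seeing the data), with an interval that included 0. The difference in medians from intergenic peaks went from -0.05 to 0.25 without CpG islands, and both intervals included 0. For changes with no construction named, the cause was not tested. No setting that leaves out a library could be run, since the list holds means only. Weak peaks rest on about 20 ChIP reads, and the highest ratios on input of a few reads, so their size is imprecise. The authors subsampled 30 M reads from every library, and how many of them aligned cannot be read from the list.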
